A study of Sus scrofa with 6 samples.

Results

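Short loci are the rows of the deposited table whose locus, from its listed start to its listed end, spans under 300 bp. Members were the short rows with a level of at least 1 FPKM (fragments scaled by length and by library total) in at least 3 of 6 libraries, and 111 of the 220 short rows met this rule, out of 11564 rows in all. They were grouped by the start of their symbol into 3 SNORD, 19 SNORA and 2 SCARNA loci and 87 others. RNA came from the peripheral blood mononuclear cells (PBMCs, the lymphocytes and monocytes of blood) of pigs at 6 months of age. There were 3 libraries labelled WT and 3 labelled leptin. The leptin pigs carried the pig leptin reading frame behind a leptin promoter. They were cloned by nuclear transfer from transfected, drug-selected fibroblasts of a Yorkshire fetus. Nontransgenic pigs were the controls, and no treatment is given in the labels for either genotype. The paper gives no breed for the controls and speaks of miniature pigs in its ethics statement.

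Small nucleolar RNAs guide chemical changes on ribosomal RNA. Those of the box C/D class (SNORD) guide methylation of the ribose, those of the box H/ACA class (SNORA) guide pseudouridine formation, and the SCARNA class acts in Cajal bodies on the RNAs of the spliceosome. In vertebrates most of them are cut out of the introns of longer host genes. The U1, U2 and U4 RNAs are parts of the spliceosome, U3 acts in ribosomal RNA processing, and 7SK RNA holds the elongation factor P-TEFb inactive. Proteins bound to U1 RNA and to Y RNA are well-known targets of autoantibodies in lupus.

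LEP, the transcript that the transgene should raise, was read first. Among the libraries labelled WT it stood at 50.0 FPKM in replicate 1, at 0 in replicate 2 and at 0.118 FPKM in replicate 3. Among those labelled leptin it stood at 0 in replicate 1, at 18.3 FPKM in replicate 2 and at 39.3 FPKM in replicate 3. The replicate 1 library of each genotype thus runs counter to its label. Groups follow the labels throughout, and directions below are those of the libraries so labelled.

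Markers of the main PBMC types were present in all libraries. The 5 T cell, 4 B cell and 4 cytotoxic cell markers were all above 0 in every library, the lowest value being GZMB at 4.73 FPKM, and of the 4 monocyte markers CD163 alone stayed low, between 0.824 and 1.76 FPKM. Of the granulocyte markers S100A8, S100A12 and ELANE were listed, and their sum lay between 265 and 2402 FPKM in the WT libraries and between 258 and 662 FPKM in the leptin libraries. Erythroid markers summed to between 25.1 and 219 FPKM in WT and to between 21.8 and 103 FPKM in leptin, and platelet markers to between 168 and 403 FPKM in WT and to between 112 and 363 FPKM in leptin. The highest sums of these 3 lists were all in WT replicate 1, and their part in the values below was not tested. In such bulk samples, fewer cells of a type and less RNA per cell cannot be told apart.

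The working description of these rows as noncoding held for only some of them. Of the 111 loci, 58 carried the symbol of a known noncoding RNA, 8 were listed as protein coding, 2 carried another symbol, and 43 had no symbol. In 42 of the 43 loci without a symbol the distance from start to end was a multiple of 3, beside 3822 of all 10735 rows that passed the same filter (35.6%). The length of an uninterrupted reading frame is also a multiple of 3. Spans in this report count both the start and the end base, while this distance leaves the start base out. Which of them is the true length is not given. The 8 protein-coding rows were USMG5, KIAA0040, SMIM15, COA4, C2orf88, IL2RA, MS4A8B and LINC00998, whose listed loci are short. They are counted below as short loci, and the named noncoding RNAs are given apart from them.

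Detection is given by RNA class, and differences between classes were not tested. Of the short rows in the table, 3 of 14 SNORD, 19 of 50 SNORA and 2 of 6 SCARNA rows passed the filter, beside 111 of all 220 (50.5%). Among other classes 13 of 17 U1, 5 of 7 U2, 6 of 6 U3 and 3 of 7 7SK rows passed. None of the 16 U6, 2 U5 and 2 U12 rows passed. Of the passing rows, 12 of 13 U1 and 4 of 6 U3 rows were above 0 in every library, whereas all 3 SNORD rows and 14 of 19 SNORA rows were listed at 0 in at least 1 library. Among the 109 short rows under the filter, 84 reached 1 FPKM in a single library and 25 in 2 libraries. The deposited table holds only rows that reach 1 FPKM in some library, so rows lower than that are not analysed here.

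Values of 0 were common at short loci and rare elsewhere. A 0 stood in at least 1 library at 42 of 111 short loci (37.8%), against 86 of all 10735 rows tested (0.801%). By span, 27.0% of the values were 0 at the 21 loci of 100 to under 150 bp, 14% at the 38 loci of 150 to under 200 bp and 4.90% at the 51 loci of 200 to under 300 bp. The share was 0.749% at the 356 rows of 300 to under 1000 bp and 0.0958% at the 10268 rows of 1000 bp or more. Zeros also stood in rows of high FPKM. Among rows with a mean of at least 20 FPKM, 13 of 19 loci of 100 to under 150 bp and 2 of 19 loci of 150 to under 200 bp were at 0 somewhere, against 0 of 99 rows of 300 to under 1000 bp and 2 of 2972 rows of 1000 bp or more. Of the 18 rows in the whole table that combined such a mean with a 0, 16 were short loci. At 132 bp a mean of 20 FPKM is below the smallest value estimated for 1 fragment, 26.6 FPKM, so a high FPKM at these spans can still be few fragments.

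**Figure D1:**
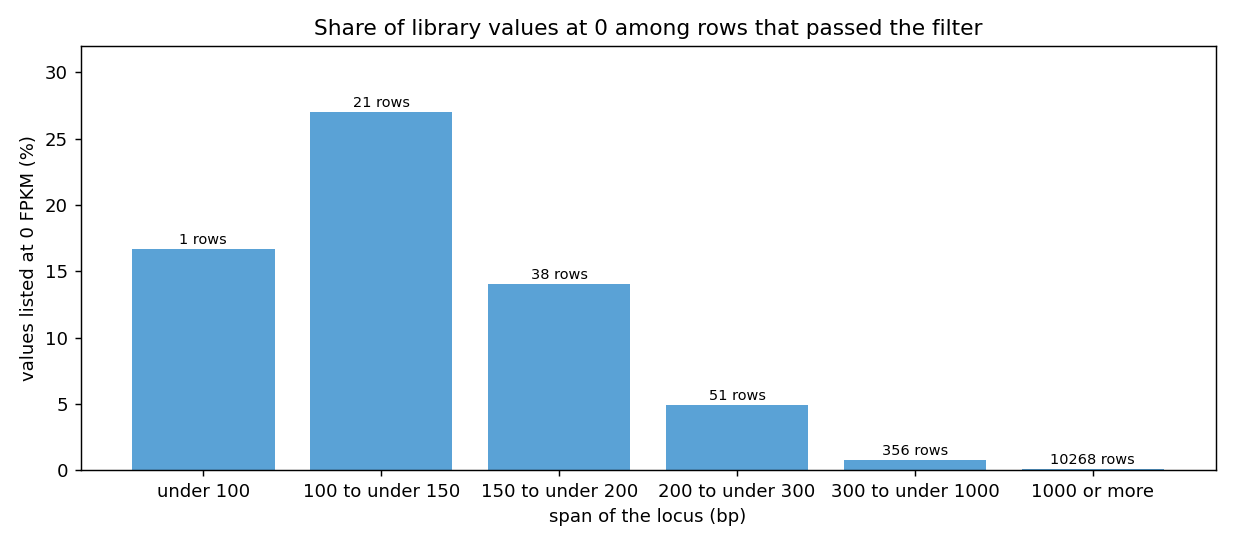
Share of library values listed at 0 FPKM (vertical axis, percent) in classes of locus span (horizontal axis, bp), over rows with at least 1 FPKM in at least 3 libraries, with the number of rows above each bar. The share falls from 27.0% at 100 to under 150 bp to 0.0958% at 1000 bp or more, and the class under 100 bp is 1 row.

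The number of short loci listed at 0 did not separate the labels. It was 13, 10 and 14 in WT replicates 1, 2 and 3 and 13, 14 and 18 in leptin replicates 1, 2 and 3, so the groups overlapped. The means were 12.3 ± 2.08 (SD, n = 3) in WT and 15.0 ± 2.65 (SD, n = 3) in leptin, with p = 0.5 in a two-sided exact permutation test, whose smallest possible p with 3 against 3 libraries is 0.1. Of the zeros in the 3 SNORD rows, 5 were in WT and 1 in leptin libraries, but 3 of the 5 belong to a SNORD22 locus that passed the filter only through the leptin libraries. Of those in the 19 SNORA rows, 12 were in WT and 15 in leptin libraries.

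From 110 to under 170 bp most low FPKM values of a library were whole multiples of a step that depended on the span. The smallest step, taken as the value of 1 fragment, was fitted to the values themselves after they had been seen, leaving out the U1, U2, U3, U6, 7SK and Metazoa_SRP rows, whose copies could share reads. Of 146 values above 0.5 and up to 6.5 steps from 110 to under 170 bp, 142 lay within 0.1 of a whole number, which the fit favours, and 2 of the other 4 were below 1 step. A further 11 values were at most 0.5 of a step. Of 16 values that round to between 9 and 20 steps, which the fit did not use, 14 did. The files give no fragment counts, so steps serve only as a description of how few fragments a value can rest on.

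The step was large and differed between libraries at the shortest loci. At 132 bp it was 56.5, 33.7 and 26.6 FPKM in WT replicates 1, 2 and 3 and 33.6, 42.4 and 37.6 FPKM in leptin replicates 1, 2 and 3. The highest was 2.12 times the lowest. At 160 bp the steps lay between 6.58 and 9.01 FPKM, where the highest was 1.37 times the lowest. Steps are not given above 170 bp, where they were not followed at each span. Over the 4 rows of 274 bp the lowest value above 0 was 0.494 FPKM. The 27 members from 110 to under 170 bp for which steps were read had 117 values above 0, with a median of 3 steps, and 66 of these values were at most 3 steps.

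**Figure D2:**
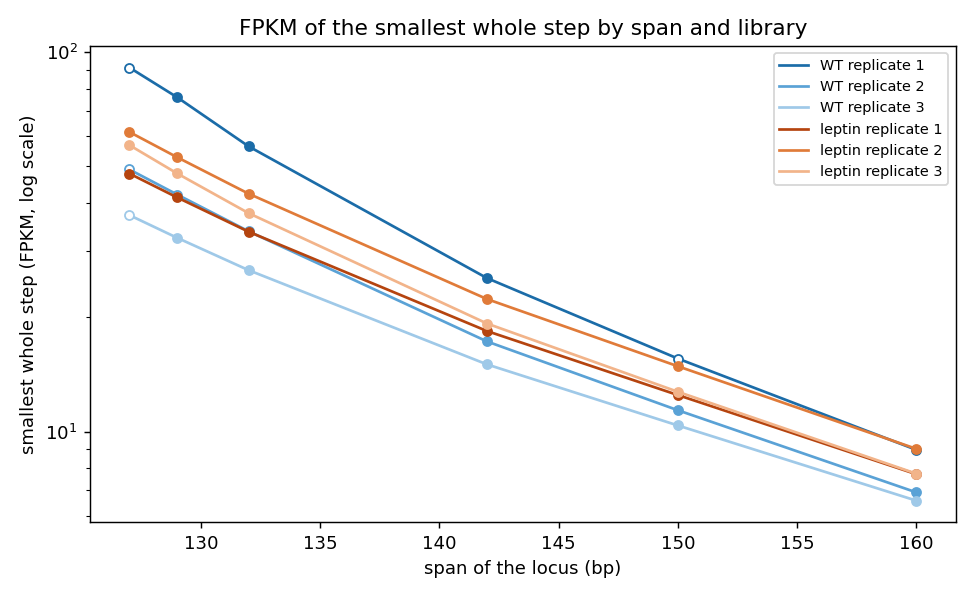
Smallest whole step in FPKM (vertical axis, log scale) at selected locus spans (horizontal axis, bp), with 1 line for each library. Filled points were set by values at that span and open points interpolated, and steps fall from between 26.6 and 56.5 FPKM at 132 bp to between 6.58 and 9.01 FPKM at 160 bp, with the libraries farther apart at short spans.

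Differences between the labels were tested with limma on log2(FPKM + 1) over all 10735 rows, with Benjamini-Hochberg adjustment over all of them. At an adjusted p under 0.05, 1 short locus was higher in the leptin-labelled libraries and 0 were lower. That locus, a SNORD22 row of 127 bp, was the only row called in the table (0.00932% of rows higher, 0% lower). It passed the filter only through the leptin libraries, which fixed its direction. Over rows that reached 1 FPKM in both labels, 0 short loci were called at an adjusted p. At an unadjusted p under 0.05, 11 short loci were higher and 6 were lower, that is 9.91% and 5.41% of the 111, beside 1.98% and 1.19% of all rows. Without limma's moderation of the variance 6 and 1 of the 111 were, beside 224 and 121 of 10735 rows. Of the 11, that SNORD22 row and ENSSSCG00000017808 passed the filter only through the leptin libraries, which fixed their direction. Over rows that reached 1 FPKM in both labels, a choice made after the values were seen, 9 of 109 short loci were higher and 6 lower (8.26% and 5.50%), beside 1.94% and 1.16% of 10723 rows. Of the 17 loci at an unadjusted p under 0.05 among all 111, 9 were at 0 in at least 1 library. The median difference over the short loci was -0.07 on the log2 scale, beside 0.06 over all rows, and 49 were higher and 62 lower.

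The spread between libraries of a label was also wide at short loci. Its median was 0.70 on the log2 scale over the short loci, beside 0.22 over all rows, and rose to 2.59 at 100 to under 150 bp. All leptin libraries lay above all WT libraries at 9 short loci (8.11%, beside 5% of all rows) and below them at 1 (0.901%, beside 2.63%). The 9 include both loci that the filter bound to lie above WT. Without rows of that kind, 7 of 109 lay above (6.42%, beside 4.96% of 10723 rows).

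**Figure D3:**
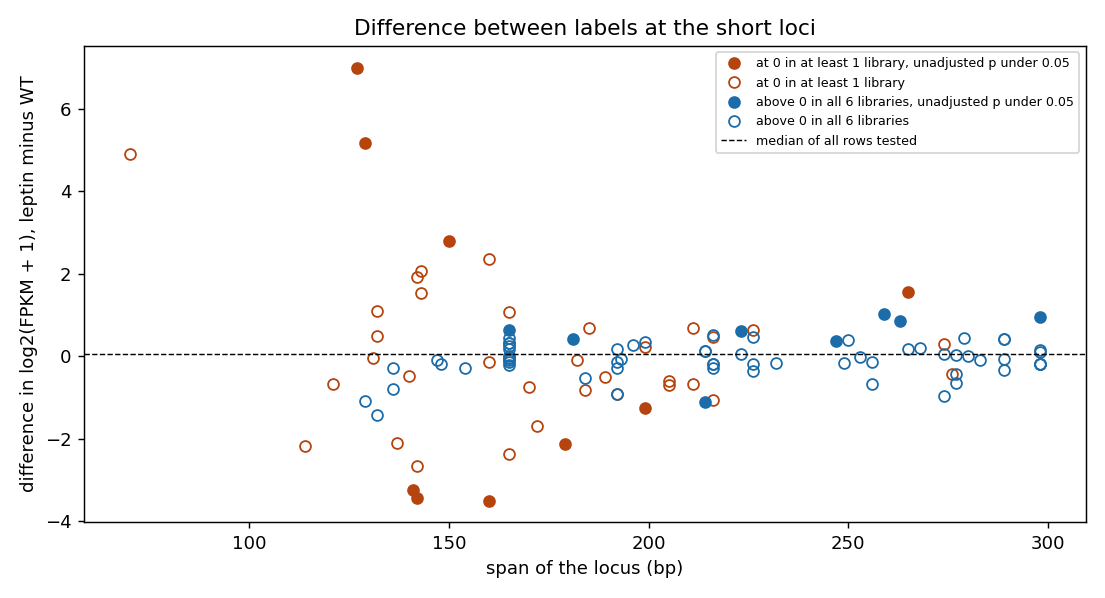
Difference in log2(FPKM + 1), leptin minus WT (vertical axis), against locus span in bp (horizontal axis) for the 111 short loci. Filled points have an unadjusted p under 0.05, colour separates loci at 0 in some library from the rest, and the points scatter most widely below 170 bp, up to 6.99 at the 127-bp SNORD22 locus.

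SNORD22, a box C/D RNA, was listed at 2 loci 1044 bp apart on chromosome 2, and carried the adjusted call. The locus from 8242098 to 8242224 (ENSSSCG00000025513, 127 bp) was listed at 0 in all 3 WT libraries and stood at 191, 185 and 56.9 FPKM in leptin replicates 1, 2 and 3. In steps these are 4, 3 and 1. All leptin libraries lay above all WT libraries, but the locus passed the filter only through the leptin libraries and so had to differ. The fitted difference was 6.99 ± 0.42 (SE) on the log2(FPKM + 1) scale with an adjusted p of 0.00186 in limma, a size that depends on the pseudocount, and p = 0.1 in the exact permutation test, the smallest it allows. The 3 WT values are equal, so the standard error rests on the leptin libraries and on the moderation.

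That call depended on single choices. The adjusted p was 0.0605 without WT replicate 1, 0.0625 with a pseudocount of 5, 0.0916 without both libraries numbered 1 and 0.932 without moderation. With the 2 SNORD22 rows summed it was 0.993, at a difference of 5.81. Over all alternatives it ran from 9.91e-07 to 0.993, and the difference from 4.72 to 10.3.

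The neighbouring SNORD22 locus, from 8243269 to 8243397 (ENSSSCG00000029549, 129 bp), did not repeat the separation. It was listed at 0 in WT replicates 1 and 2, stood at 292 FPKM in WT replicate 3, and at 331, 211 and 192 FPKM in leptin replicates 1, 2 and 3. WT replicate 3 lay inside the leptin range. The difference was 5.17 ± 1.94 (SE), with an adjusted p of 0.993 and an exact permutation p of 0.3, and without WT replicate 3 it was 7.90 with an adjusted p of 6.56e-05. Without WT replicate 1 or 2 it was 3.80, with an unadjusted p of 0.116 and 0.089 in limma. The nearest other row, a U2 locus 6727 bp from the first SNORD22 locus, was at 52.1, 98.2 and 45.5 FPKM in WT and 67.3, 78.3 and 32.2 FPKM in leptin, with overlapping groups.

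**Figure D4:**
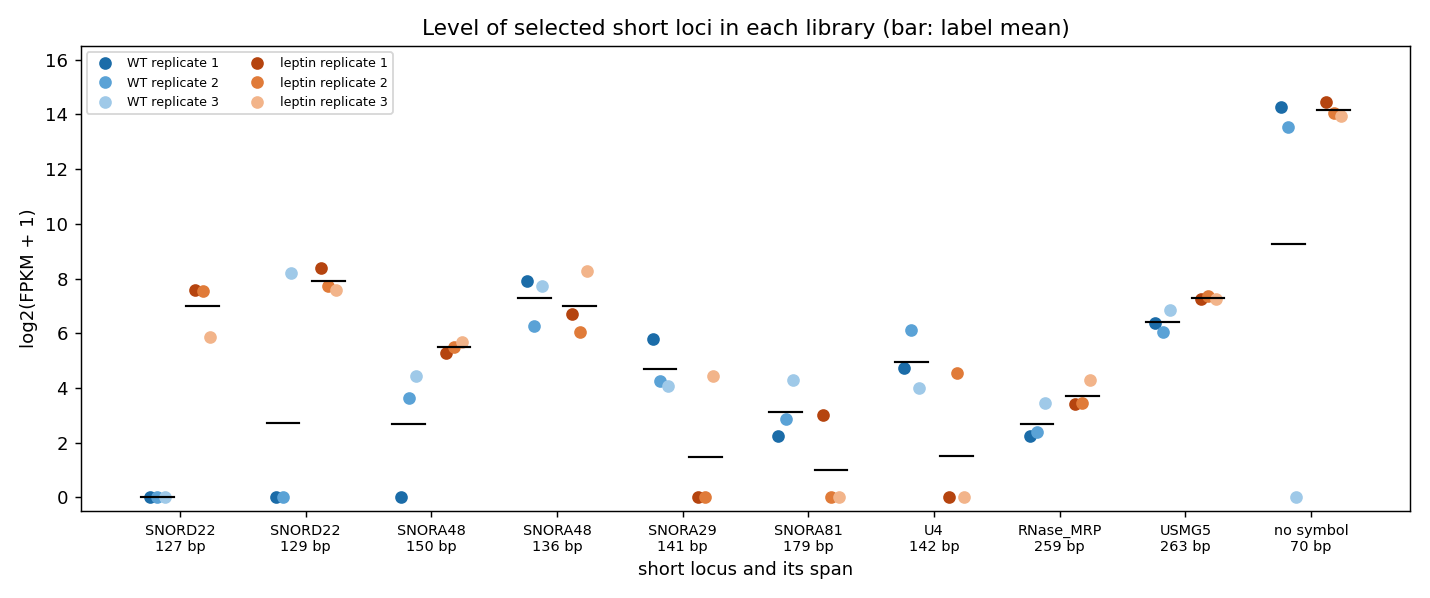
Level in log2(FPKM + 1) (vertical axis) of 10 short loci (horizontal axis, with spans) in each library, with a bar at the mean of each label. The 127-bp SNORD22 locus is at 0 in the 3 WT libraries and above 5 in the 3 leptin libraries, while SNORA29, SNORA81 and U4 mix zeros with high values inside the leptin label and the 70-bp locus is at 0 in WT replicate 3 alone.

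SNORD10, the other SNORD locus, lies inside EIF4A1, which encodes a translation initiation helicase. It was at 254, 138 and 90.2 FPKM in WT and at 73.6, 0 and 173 FPKM in leptin replicates 1, 2 and 3. The groups overlapped. The same interval also holds 3 further short loci inside EIF4A1, namely 2 SNORA48 loci and SNORA67.

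Of the 19 SNORA loci, 1 was higher and 2 were lower at an unadjusted p, beside 1.98% and 1.19% of all rows, and none passed the adjustment. The SNORA48 locus of 150 bp on chromosome 12, from 55302899 to 55303048, was listed at 0 in WT replicate 1, was at 11.4 and 20.8 FPKM in WT replicates 2 and 3, and was at 37.4, 44.6 and 50.9 FPKM in leptin replicates 1, 2 and 3. The groups did not overlap, and in steps the values were 0, 1 and 2 against 3, 3 and 4. The difference was 2.80 ± 0.98 (SE), with an unadjusted p of 0.021, an adjusted p of 0.993 in limma and p = 0.1 by exact permutation. Without WT replicate 1, the library at 0, the difference was 1.45. The other SNORA48 locus, 703 bp away, was at 238, 75.7 and 209 FPKM in WT and at 104, 64.4 and 309 FPKM in leptin, and its groups overlapped. The sum of both rows gave a difference of 0.074.

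SNORA29, inside the chaperonin gene TCP1, was at 54.3, 18.3 and 15.8 FPKM in WT and was listed at 0 in leptin replicates 1 and 2 and at 20.4 FPKM in leptin replicate 3. Its values are at most 2 steps. The difference was -3.24 ± 1.12 (SE) with an adjusted p of 0.993, and with leptin replicate 3 left out it was -4.71 with an adjusted p of 0.025. Without leptin replicate 1 or 2 it was -2.50, with an unadjusted p of 0.065 and 0.079 in limma. Without both libraries numbered 1 it was -1.96. SNORA81, inside EIF4A2, was at 3.71, 6.28 and 18.6 FPKM in WT, at 7.04 FPKM in leptin replicate 1 and listed at 0 in leptin replicates 2 and 3. The groups overlapped in both loci, since a leptin library reached the WT range. The difference at SNORA81 was -2.13 ± 0.84 (SE), with an adjusted p of 0.993.

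The SNORA loci with the highest means were SNORA11, SNORA48 and SNORA63. The 129-bp SNORA11 locus, inside the myosin gene MYO19, was at 152, 512 and 194 FPKM in WT and 41.4, 264 and 144 FPKM in leptin. SNORA63, inside EIF4A2, was at 169, 236 and 186 FPKM in WT and at 33.6, 42.4 and 263 FPKM in leptin. In FPKM, 2 of 3 leptin libraries lay below every WT library in both, and the highest SNORA63 value was in leptin replicate 3. In steps the SNORA11 values were 2, 12.1 and 6 in WT and 1, 5 and 3 in leptin. Leptin replicate 3 thus lay above WT replicate 1 in steps. The SNORA63 values were 3, 7 and 7 steps in WT and 1, 1 and 7 in leptin. Without leptin replicate 3 the SNORA63 difference was -2.34 with an adjusted p of 0.025.

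Of the 21 SNORA and SCARNA loci, 5 were at 0 in 3 libraries, drawn from both labels each time. SNORA21, inside the chaperone gene HSPA5, was at 0 in WT replicate 1 and in leptin replicates 2 and 3, and at 47.2, 78.7 and 48.9 FPKM in the others. SNORA67 was at 0 in WT replicates 1 and 2 and in leptin replicate 2. SNORA71 was at 169 FPKM in WT replicate 1, 42.4 FPKM in leptin replicate 2 and 37.6 FPKM in leptin replicate 3, and at 0 in the rest. SCARNA1, inside PPP1R8, was at 11 FPKM in WT replicate 2, 6.14 FPKM in leptin replicate 1 and 14.2 FPKM in leptin replicate 2, and at 0 in the rest. The 185-bp SNORA23 locus was at 2.98 FPKM in WT replicate 1, 3.25 FPKM in leptin replicate 2 and 2.85 FPKM in leptin replicate 3, and at 0 in the rest. The groups overlapped in all 5. When both libraries numbered 1 were left out, SNORA71 had an adjusted p of 0.00325 and SNORA21 one of 0.0103, with 2 libraries in each label. SNORA71 was then higher in leptin, by 5.36, and SNORA21 lower, by -5.95. Both remaining WT libraries were at 0 for SNORA71 and both leptin libraries for SNORA21, so that label had no spread. The remaining SNORA71 values were 1 step each. The longest SCARNA, SCARNA13, with 277 bp, was above 0 in every library, between 0.994 and 4.31 FPKM.

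The remaining repeated SNORA symbols also overlapped between labels. The 2 SNORA23 loci summed to between 2.62 and 18.6 FPKM over the 6 libraries and the 2 SNORA73 loci to between 1.84 and 8.90 FPKM. The 131-bp SNORA11 locus, inside UBE2Z, was at 0 in WT replicate 2 and leptin replicate 3 and between 45.5 and 72.0 FPKM elsewhere.

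Host genes varied less between libraries than the short loci inside them. A longer row enclosed 29 of the 111 short loci, in 24 host rows, and 18 of the 24 small nucleolar and Cajal body loci had one. None of the 24 hosts was at 0 in any library and none reached an unadjusted p under 0.05 in limma, a share near the 3.18% of all rows that did, while 18 of the 29 enclosed loci were at 0 somewhere. The median spread between libraries of a label was 0.17 on the log2 scale in the hosts and 1.48 in the enclosed loci. EIF4A1 was at 184, 264 and 258 FPKM in WT and 253, 257 and 230 FPKM in leptin, and its 4 enclosed loci summed to 492, 225 and 362 FPKM in WT and 250, 109 and 625 FPKM in leptin. EIF4A2 was at 182, 164 and 204 FPKM in WT and 212, 168 and 202 FPKM in leptin, and its 3 enclosed loci summed to 244, 275 and 205 FPKM and to 110, 63.5 and 300 FPKM. The enclosure is by coordinates, without strand.

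None of the tested genes on a list of small nucleolar RNA partners passed the threshold, and partners of the other RNAs were not listed. The list held 30 genes for box C/D and box H/ACA particle proteins, their assembly factors and related factors such as COIL, DIS3, EXOSC10, PHAX and TCOF1. Of these 22 were tested and 0 passed either p in limma, beside 1.98% of all rows higher and 1.19% lower at an unadjusted p. Their median difference was 0.16 beside 0.06 over all rows. Their summed FPKM was 842, 950.1 and 1004 in WT and 1112, 1060.2 and 1045 in leptin, without overlap, but with each library scaled to the same total it was 888 to 1048 in WT and 989 to 1049 in leptin, and the groups overlapped. In the deposited scaling 21 of 22 were higher in leptin, but with each library scaled to the same total FPKM 13 were, and without both libraries numbered 1 it was 11. NOP10, an H/ACA protein, was at 544, 594 and 602 FPKM in WT and 689, 718 and 644 FPKM in leptin. It made up most of the summed FPKM in every library, so the sums rest mostly on it. FBL, the box C/D methyltransferase, was at 41.1, 53.7 and 57.3 FPKM in WT and 57.6, 46.5 and 53.2 FPKM in leptin. The replication-dependent histones, whose mRNAs mostly lack poly(A) tails as many short RNAs do, had 10 tested rows. Of these 1 was higher at an unadjusted p in limma, HIST1H2BN, and 0 passed the adjustment. HIST1H2BN is listed over 54180 bp, beside 382 bp for HIST2H2BE, so whether its value is that of a single histone mRNA is not known. With either alternative scaling, median-of-ratios or the same total FPKM, 0 of the 10 were at an unadjusted p under 0.05. Without WT replicate 1 it was 2 of 10, beside 140 of 10735 rows higher and 131 lower. Without both libraries numbered 1 it was also 2 of 10, beside 119 higher and 147 lower. Histone rows summed to 68.0, 59.98 and 79.0 FPKM in WT and 86.3, 112 and 82.6 FPKM in leptin, without overlap, and with the same total FPKM they overlapped, at 62.6 to 82.4 FPKM in WT and 80.9 to 104.7 FPKM in leptin.

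The U1 family was the largest of the noncoding classes after SNORA. On chromosome 12, between 35716299 and 35903877, 12 U1 loci of 165 bp had means between 14.3 and 37.9 FPKM and no 0 in any library. Their sum was 198, 260 and 375 FPKM in WT and 387, 237 and 278 FPKM in leptin, with overlapping groups and p = 0.7 by exact permutation. The locus from 35737625 to 35737789 was at 22.9, 18.2 and 26.4 FPKM in WT and 38.3, 28.7 and 38.8 FPKM in leptin, and its groups did not overlap. Its difference was 0.63 ± 0.19 (SE), with an adjusted p of 0.993, while the sum over all U1 rows had a difference of -0.019. Copies of U1 could share reads, which the files do not show, so the split between them is uncertain.

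The U1 locus on chromosome 11 stood apart from these, at 48.2 and 21.9 FPKM in WT replicates 1 and 2, 7.10 FPKM in leptin replicate 2 and 0 in the other 3 libraries. A U3 locus on the same chromosome had the same value as a U3 locus on chromosome 12 in each of the 6 libraries. The 6 U3 loci summed to 39.4, 16.7 and 37.3 FPKM in WT and 26.1, 22.8 and 36.5 FPKM in leptin. One of them, from 35725694 to 35725909 on chromosome 12, was at 0 in WT replicate 3 and in leptin replicates 2 and 3. Neither sum nor zeros separated the labels.

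The other RNAs of the spliceosome were fewer. The 5 U2 loci summed to 168, 192 and 64.4 FPKM in WT and 128, 120 and 57.4 FPKM in leptin, with the lowest value of each label in replicate 3. The U4 locus on chromosome 14, from 42856401 to 42856542, was at 25.4, 69.1 and 15.0 FPKM in WT, at 22.3 FPKM in leptin replicate 2 and at 0 in leptin replicates 1 and 3. In steps these are 1, 4 and 1 against 0, 1 and 0. The groups overlapped, and the difference was -3.44 ± 1.16 (SE) with an unadjusted p of 0.018 and an adjusted p of 0.993.

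RNAs made by RNA polymerase III gave mixed values. RNase_MRP, which cuts precursor ribosomal RNA, was at 3.71, 4.29 and 10.02 FPKM in WT and 9.66, 9.99 and 18.4 FPKM in leptin. The groups overlapped at WT replicate 3, and the difference was 1.02 ± 0.36 (SE) with an unadjusted p of 0.022 and an adjusted p of 0.993. The 3 7SK loci summed to between 4.92 and 7.42 FPKM and the 2 loci for signal recognition particle RNA (Metazoa_SRP) to between 18.1 and 42.8 FPKM over the 6 libraries, with p = 1 and p = 0.9 by exact permutation. The 114-bp Y_RNA locus was at 412 and 140 FPKM in WT replicates 1 and 2, at 631 FPKM in leptin replicate 3 and at 0 in the other 3 libraries.

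A single locus took most of the FPKM of the short rows in 5 of 6 libraries. The 70-bp locus on chromosome 6, from 866739 to 866808 (ENSSSCG00000025162, no symbol), was at 19720, 11837 and 0 FPKM in WT replicates 1, 2 and 3 and at 22538, 17152 and 15879 FPKM in leptin replicates 1, 2 and 3. It held between 2.63% and 4.50% of the total FPKM in the 5 libraries where it was above 0. Steps were not read under 110 bp, so how few fragments these values rest on is not known. At 82 bp, SNORD33 was listed at 4358 FPKM in leptin replicate 1 and at 0 in every other library. A high FPKM or a 0 at 70 bp is therefore no measure of how abundant the RNA was. The row nearest to it, 5736 bp away, is 5_8S_rRNA, a ribosomal RNA, at 251, 494 and 476 FPKM in WT and 495, 317 and 209 FPKM in leptin. That row was above 0 in WT replicate 3, where the 70-bp locus was not.

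The summed FPKM of all 111 loci followed that locus. It was 25105, 16525 and 4314 FPKM in WT and 26691, 21304 and 20916 FPKM in leptin, a difference of 0.91 on the log2 scale with p = 0.3 by exact permutation. Without the 70-bp locus, a choice made after the values were seen, the sums were 5386, 4687 and 4314 FPKM in WT and 4153, 4152 and 5037 FPKM in leptin. The difference was then -0.11 with p = 0.5 by exact permutation, so the direction turned.

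Among the 43 loci without a symbol, 4 were higher and 3 were lower at an unadjusted p, beside 1.98% and 1.19% of all rows. ENSSSCG00000017808, 265 bp on chromosome 12, was listed at 0 in WT replicates 1 and 3, was at 0.571 FPKM in WT replicate 2, and was at 2.39, 1.32 and 4.12 FPKM in leptin. It passed the filter only through the leptin libraries and so had to differ. ENSSSCG00000011513, 298 bp on chromosome 13, was at 8.02, 3.29 and 6.62 FPKM in WT and 15.6, 8.41 and 12.5 FPKM in leptin, without overlap, and its difference was 0.95 ± 0.31 (SE) with an adjusted p of 0.993. Without WT replicate 2 it was 0.63.

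On the lower side, ENSSSCG00000029580, on chromosome 15, was at 3.25, 1.90 and 2.82 FPKM in WT and at 1.30, 0.541 and 0 FPKM in leptin, and was the short locus with all leptin libraries below all WT libraries. Its difference was -1.24 ± 0.30 (SE) with an adjusted p of 0.993. ENSSSCG00000012032, 160 bp on chromosome 13, was at 44.8, 41.5 and 26.3 FPKM in WT, at 36.02 FPKM in leptin replicate 2 and at 0 in leptin replicates 1 and 3. Leptin replicate 2 lay inside the WT range, and without it the difference of -3.50 became -5.23 with an adjusted p of 0.00115. Without leptin replicate 1 or 3 it was -2.63, with an unadjusted p of 0.075 and 0.062 in limma. The other 3 had differences of 0.60, 0.37 and -1.10, and the last, at ENSSSCG00000021699, was -0.69 with an unadjusted p of 0.158 in limma without WT replicate 1.

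The loci without a symbol that had the highest means, after the 70-bp locus, differed in spread. A 223-bp locus on chromosome 16 lay between 382 and 533 FPKM and a 121-bp locus on chromosome 8 between 0 and 953 FPKM, the latter at 0 in WT replicate 3 and leptin replicate 1. A 160-bp locus on chromosome 7 was at 0 in WT replicates 1 and 2 and in leptin replicate 2, and at 6.58, 61.8 and 15.5 FPKM in the others. A 142-bp locus inside LCP1, a leukocyte actin-bundling gene, was at 0 in WT replicates 1 and 2 and in leptin replicate 3. Neither separated the labels.

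Of the 8 protein-coding rows, 2 were higher at an unadjusted p, beside 1.98% of all rows, and neither was at 0 anywhere. USMG5, which encodes a subunit of ATP synthase, was at 82.8, 65.4 and 114 FPKM in WT and 151, 163 and 150 FPKM in leptin. The groups did not overlap, and the difference was 0.85 ± 0.21 (SE) with an unadjusted p of 0.00358, an adjusted p of 0.993 and p = 0.1 by exact permutation. LINC00998 was at 72.2, 76.3 and 78.1 FPKM in WT and 88.6, 100.5 and 117 FPKM in leptin, also without overlap, with a difference of 0.42 ± 0.15 (SE), an unadjusted p of 0.0256 and an adjusted p of 0.993. The unadjusted p of LINC00998 was 0.0504 with median-of-ratios scaling and 0.116 with the same total FPKM, where the difference was 0.29. MS4A8B was at 0 in WT replicate 3 and in leptin replicates 1 and 2, and ZFX, a row of 170 bp, was at 0 in WT replicate 1 and in leptin replicates 1 and 2.

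Just inside 300 bp stood 6 members of 298 bp, among them KIAA0040 at 45.8 to 75.5 FPKM and the 2 Metazoa_SRP loci. Just outside stood 3 rows of 304 bp without a symbol, at 0 to 5.91 FPKM. By level, 18 members reached 1 FPKM in exactly 3 libraries, 15 in 4, 19 in 5 and 59 in all 6, and 25 rows missed the rule with 2 libraries.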

How the data were processed

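PBMC RNA of 6 pigs, 3 labelled WT and 3 labelled leptin, was measured by strand-specific RNA-seq, and samples were grouped by their labels. The authors deposited 1 FPKM value per gene and library. The paper describes Bowtie alignment to the Ensembl transcriptome and RSEM, while the submitters' processing notes list FastQC, STAR 2.5, Cuffnorm and DESeq 1.22.1 without roles, so the program behind the values is uncertain, and the table names no genome build. The deposited table also holds the authors' fold changes, p-values and FDR, which were not used. The deposited FPKM give no counts, so depth is known only through the steps, and no counting interval is given.

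limma 3.58.1 (R 4.3.3, eBayes without trend) was fitted to log2(FPKM + 1), genotype only, two-sided, over rows with at least 1 FPKM in at least 3 libraries. Fold differences on this scale understate changes of rows with few FPKM. At the shortest loci 1 step is many FPKM, so 0 against few steps gives a large difference. The U4 locus, at 1, 4 and 1 steps in WT and 0, 1 and 0 in leptin, had -3.44. Sums and zeros were compared by exact permutation. The fit and the step routine were tested on simulated data. The p-values measure the spread between these libraries.

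The members and lists were chosen with earlier results of these data known. Named loci were LEP, every short locus with an unadjusted p under 0.05, the 3 highest means of each symbol group, loci at 0 in at least 3 libraries or a whole label, repeated symbols, loci nearest 300 bp, and hosts of these. Rows without a symbol are given by identifier in part. Alternatives were the pseudocount (0.1, 5), the filter, 2 scalings, the variance prior, the replicate block, left-out libraries, span limits of 200 and 400 bp and summed symbols. No sequences were used here.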

Additional observations from a re-analysis of the deposited data

Results flagged for a closer look

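Short rows under the filter, which the comparisons do not use, held values above 0 in single libraries of both labels. In the library labelled leptin replicate 1, 15 U6 rows were above 0, each listed at 15.5 FPKM, while 1 other U6 row was at 189 FPKM in WT replicate 2 and 0 were above 0 in the other 4 libraries. The 15 rows hold identical values, and whether they share reads is not known. Their number therefore does not show how widely U6 was detected in that leptin library. In the same library SNORD33, an 82-bp box C/D locus, was listed at 4358 FPKM and was at 0 in the other 5 libraries, and 4 SNORD14 rows were at 1023 or 1157 FPKM there and at 0 elsewhere. In the other direction SNORD21 was at 871 FPKM in WT replicate 2 alone and a U5 row at 611 FPKM in WT replicate 1 alone. Rows above 0 in 1 library alone numbered 7, 9 and 17 in WT and 29, 6 and 9 in leptin. The number of short rows under the filter with a value above 0 was 20, 19 and 30 in WT and 47, 10 and 28 in leptin, with p = 0.8 by exact permutation. The 29 and the 47 of leptin replicate 1 both include the 15 identical U6 rows. LEP was listed at 0 in leptin replicate 1, and its relation to these values was not tested.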

How the results depend on the processing

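Counts of calls moved with the settings. Short loci higher at an adjusted p, 1 as reported, were 0 with a pseudocount of 5, with at least 1 FPKM in all 6 libraries, over rows with 1 FPKM in both labels, without moderation and with rows of the same symbol summed, and 0 to 2 with a library left out. Short loci lower at an adjusted p, 0 as reported, were 1 without both libraries numbered 1 and 0 to 2 with a library left out. At an unadjusted p, 11 of 111 higher became 7 of 59 with 1 FPKM in all 6 libraries, beside 200 of 9764 over all rows. Without moderation they were 6 of 111, beside 224 of 10735, and under 200 bp 5 of 60. With a library left out they were 8 to 13, beside 136 to 609 of 10735. The 6 lower became 1 of 59 with 1 FPKM in all 6 libraries, beside 118 of 9764. Without moderation 1 of 111 was lower, beside 121 of 10735, and with a library left out 4 to 12 were, beside 94 to 238. With the replicate number as a block 14 short loci were higher and 16 lower, beside 216 and 168 of 10735 rows. The replicate numbers belong to different animals, and the correlations of same-numbered deviations were -0.28, 0.13 and -0.01, so the numbers do not pair the libraries. The median difference, -0.07 as reported, ran from -0.13 to 0.13 with a library left out and was 0.039 under 400 bp. It was -0.17 with the same total FPKM and -0.13 with median-of-ratios scaling. The difference in zeros, 2.67 in the main comparison, turned to -2.67 with no filter. It was 0 by construction with 1 FPKM in all 6 libraries and 1.17 to 3.67 with a library left out. That of the summed FPKM, 0.91 in the main comparison, turned to -0.12 with 1 FPKM in all 6 libraries and to -0.11 without the 70-bp locus. With a library left out it was 0.16 to 1.43. Of the 17 loci with an unadjusted p under 0.05, 10 lost it without moderation. USMG5 and ENSSSCG00000029580 kept it in every alternative run on them. So did the 127-bp SNORD22 locus, counting the sum of both SNORD22 rows as its own, and ENSSSCG00000017808, but the filter fixed the direction of both and they drop out over rows with 1 FPKM in both labels. The U1 locus on chromosome 12 had -0.019 in place of 0.63 when U1 rows were summed, the only one of the 17 to turn. With each library scaled to the same total FPKM the median of all rows went from 0.06 to -0.05, and 21.4% of unadjusted calls were higher in place of 62.5%, or 40.0% with median-of-ratios scaling. Causes other than the construction of each setting were not tested. Of the 117 values above 0 at the members with steps, 103 were at most 10 steps and the highest was 55.3, at 5_8S_rRNA, while steps were not read for U1 rows or under 110 bp. With 3 libraries per label the precision is limited.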
